A study of Mus musculus with 4 samples.

Results

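Integrins and cadherins are the adhesion receptors of fibroblasts, and their transcripts were followed here in mouse embryonic fibroblasts with and without PA1, read here as the product of Pagr1a, which sits in the histone methyltransferase complexes of KMT2C and KMT2D. Members were all probe sets with a single platform gene symbol of the form Itga, Itgb or Cdh plus a chain number or letter. This gave 104 of the 45037 probe sets other than controls, for 50 of 18193 named genes: 24 integrin chains (54 probe sets), 21 cadherins (39 probe sets) and 5 genes whose symbols match without naming a chain (11 probe sets). The cells were immortalised fibroblasts homozygous for a loxP-flanked PA1 allele. Infection with a retrovirus expressing Cre recombinase gave PA1 -/- cells (2 arrays), and infection with the empty retrovirus gave PA1 +/+ cells (2 arrays). All cells carried the floxed allele and a retrovirus, all were selected in puromycin at 2.0 µg/ml for 3 days with 1 repeat, and only the PA1 -/- cells had Cre, so that loss of PA1 and presence of Cre cannot be told apart. Within a genotype the arrays are numbered 1 and 2, without a word on separate cultures, so that the p-values reflect the spread between these 4 samples alone and that spread may be technical. Each array was one hybridisation of total RNA to an Affymetrix chip. The sources used here do not give the age of the embryos.

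Integrins are heterodimers of an alpha and a beta chain that bind extracellular matrix or other cells outside and couple to the actin cytoskeleton inside through talin, kindlin and their partners. The alpha v chain and its beta partners bind the RGD sequence of fibronectin and vitronectin, alpha 5 with beta 1 is the classical fibronectin receptor, and alpha 3, alpha 6 and alpha 7 bind laminins. Cadherins bind the same cadherin on a neighbouring cell in a calcium-dependent way and are anchored to actin through catenins. Mesenchymal cells are known for N-cadherin (Cdh2) and cadherin-11 (Cdh11), and epithelial cells for E-cadherin (Cdh1).

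Signals are MAS5 values on a linear scale, and differences are on the log2(signal + 9.96) scale, PA1 -/- minus PA1 +/+, unless stated. A probe set was taken as above background on an array where its signal passed the 95th percentile of 83 probe sets for olfactory, vomeronasal and taste receptors, which lay between 38.4 and 50.8 on the 4 arrays. The targeted gene Pagr1a read 1340 and 1389 on the PA1 +/+ arrays numbered 1 and 2, and 107.6 and 113.4 on the PA1 -/- arrays, by its brightest probe set. Of 10 fibroblast markers 8 were above background on all 4 arrays, the others being Dcn (2 arrays, both PA1 +/+) and Lum (none). Of the 9 fibroblast markers tested, 7 were lower in PA1 -/- cells at both numbers (29.3% of all tested genes were) and 0 higher, with a median difference of -0.47. In limma 0 passed at an adjusted p under 0.05 and 2 had an unadjusted p under 0.05, against 2.16% of all tested genes in either direction. The 2 were Pdgfra (1515 and 357 in PA1 +/+, 133.8 and 210.3 in PA1 -/- cells) and Dcn (138.2 and 102.9 against 41.4 and 37.9). Dcn was bright enough to be tested only through its PA1 +/+ arrays, so nothing is read from its p-value or its place in these counts. Summed over the list, the signal of the 10 markers was 73416 and 87688 in PA1 +/+ and 62955 and 70826 in PA1 -/- cells. The part of this in the differences below was not tested. Arrays of the same number and opposite genotype correlated at 0.971 and 0.977 over the tested probe sets, and arrays of the same genotype at 0.918 and 0.920, so that each member is given below by number. The upper 50% of probe sets by mean signal were tested with limma, and a gene was read through its brightest probe set.

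Above background on all 4 arrays were 31 of the 93 integrin chain and cadherin probe sets (33.3%), against 49.2% of all probe sets. By gene and brightest probe set, 11 of 24 integrin chains were above background on every array, 6 on some and 7 on none. The 11 were Itga2b, Itga3, Itga5, Itga6, Itga7, Itga9, Itga10, Itgav, Itgb1, Itgb3 and Itgb5. Itga1, Itga8, Itgb2 and Itgb8 passed on 3 arrays, and Itga4 and Itgb7 on 2. By that probe set, the leukocyte alpha chains Itgal, Itgam, Itgax and Itgae, the epithelial chains Itgb4 and Itgb6, and the collagen-binding chain Itga2 were above background on no array, with no signal over 41.99. A second, dimmer probe set of Itgae was above background on 1 array, the PA1 +/+ array numbered 1, where it read 56.5. Of the 21 cadherins, 4 were above background on all 4 arrays (Cdh2, Cdh11, Cdh13 and Cdh15), 7 on some (Cdh1, Cdh3, Cdh6, Cdh10, Cdh17, Cdh22 and Cdh26) and 10 on none. Those 10 were Cdh4, Cdh5, Cdh7, Cdh8, Cdh9, Cdh16, Cdh18, Cdh19, Cdh20 and Cdh23, with no signal over 41.9, so the vascular cadherin Cdh5 was not detectable. Endothelial markers (1 of 7 above background on all 4 arrays) summed to 203 and 206 in PA1 +/+ and to 226 and 206 in PA1 -/- cells. Pecam1, Tek, Tie1 and Emcn were above background on none, Cldn5 on 1 and Esam on 2. Kdr was above it on all 4, at 82.5 and 48.2 in PA1 +/+ and 74.9 and 74.6 in PA1 -/- cells. Leukocyte markers (3 of 8 on all 4 arrays) summed to 499 and 446 in PA1 +/+ and to 500.1 and 439 in PA1 -/- cells. Ptprc, Tyrobp, Lcp1 and Cd52 were above background on none, Fcer1g on 3, and Csf1r, Cd68 and Laptm5 on all 4. Csf1r read 94.9 and 91.3 in PA1 +/+ and 174.8 and 147 in PA1 -/- cells, and Cd68 223.7 and 164.6 against 173.2 and 132.8. The part of such cells in the member values was not tested. The filter left 19 chain and cadherin genes for testing (13 integrin chains, 6 cadherins), by the mean of their log2 signal over all 4 arrays.

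With genotype as the only term, 0 of the 19 genes passed limma at an adjusted p under 0.05, against 0 of 10714 genes tested (0%). The adjusted p of each of the 19 was 0.9998. At an unadjusted limma p under 0.05 there was 1 of the 19, Itgb5, which was lower in PA1 -/- cells, against 2.16% of all genes in either direction, 1.34% lower and 0.812% higher. That count fell to 0 in fits without a trend or with the probe sets of each gene averaged. Fits without 1 array leave a genotype with 1, so this count is not read from them. With 2 arrays in each genotype, the smallest p that an exact permutation test can reach is 0.333. The genotypes are therefore set beside each other number by number. The SEs and intervals printed with them come from the fit with genotype as the only term. They therefore also hold the spread between numbers and do not measure that of the differences within a number. Lower in PA1 -/- cells at both numbers were 6 of the 19 (31.6%, against 29.3% of all genes), all integrin chains: Itgb5, Itgb8, Itga6, Itga8, Itga10 and Itga2b. Higher at both were 8 of 19 (42.1%, against 33.9% of all genes): Itgb1, Itgav, Itga5, Itga7, Cdh2, Cdh3, Cdh13 and Cdh15. Cdh3 was below background on both arrays numbered 2, so that its direction there is not a measured one, and Cdh2 differed by 0.0035 at number 1. Itga8 was bright enough to be tested only through its PA1 +/+ arrays, so nothing is read from the share of the 6. After quantile normalization or median scaling Itga10 left the first count, and after cyclic loess Cdh2 left the second. The other 5, Itga3, Itga9, Itgb3, Cdh10 and Cdh11, went opposite ways at the 2 numbers, though Cdh10 was below background on both arrays numbered 2. No member was at least 2-fold lower at both numbers (0.831% of all genes) or at least 2-fold higher at both (0.187%). The median difference was -0.09 over the 13 integrin chains and 0.25 over the 6 cadherins, against 0.02 over all tested genes. The 6 include Cdh3 and Cdh10, each below background on both arrays numbered 2, so nothing is read from the cadherin median. Both medians took either sign when 1 array was left out, from -0.19 to 0.17 for integrin chains and from -0.07 to 0.52 for cadherins. Without the PA1 +/+ array numbered 2 they were 0.049 and -0.072, and without the PA1 -/- array numbered 1 they were 0.17 and -0.071.

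**Figure D1:**
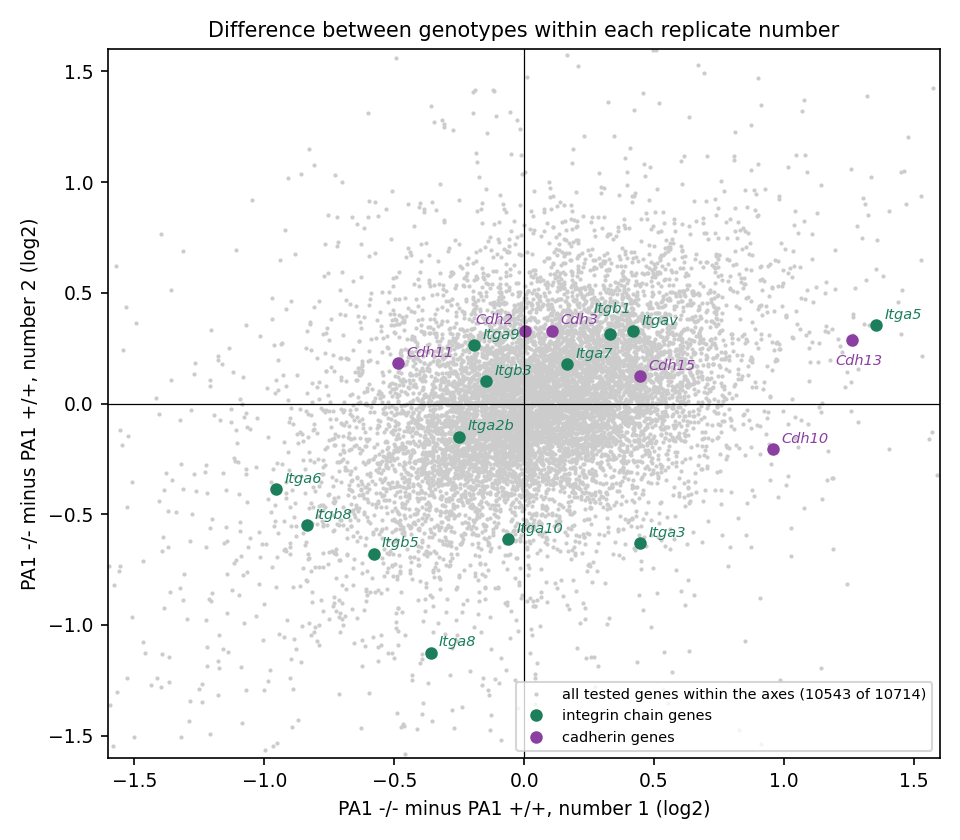
Difference between PA1 -/- and PA1 +/+ cells (log2) at number 1 on the x axis and at number 2 on the y axis, for tested genes within the axes in grey, integrin chains in green and cadherins in purple. Itgb5, Itgb8, Itga6 and Itga8 lie at lower left, Itga5 and Cdh13 at far right with differences of 1.36 and 1.26 at number 1 and 0.35 and 0.29 at number 2.

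Itgb5 encodes the beta 5 chain, which pairs with alpha v to bind vitronectin. Its brightest probe set read 4281 and 5265 on the PA1 +/+ arrays numbered 1 and 2, and 2862 and 3288 on the PA1 -/- arrays. Both PA1 -/- arrays lay below both PA1 +/+ arrays, which held for 4 of the 19 members (21.1%, against 11.3% of all genes). After quantile normalization or median scaling it held for 3. Of the 4, Itga8 was bright enough to be tested only through its PA1 +/+ arrays. Its mean signal was 92.8 there and 48.0 in PA1 -/- cells, with the filter boundary at 62.8, so nothing is read from this share. Itgb5 differed by -0.58 at number 1 and -0.68 at number 2, or 1.55-fold on average. The mean log2 difference was -0.63 (SE 0.211, 95% interval -1.18 to -0.08). The unadjusted p of its brightest probe set in limma was 0.0326, and those of its other tested probe sets were 0.099, 0.077 and 0.073. All 4 tested probe sets of Itgb5 were lower at both numbers, with mean differences from -0.50 to -0.63. Without 1 array the difference of Itgb5 ran from -0.78 to -0.48.

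Itgb8, whose product pairs with alpha v and takes part in the activation of latent TGF-beta, also read lower in PA1 -/- cells within each number. Its only probe set gave 420 against 231 at number 1 (PA1 +/+ against PA1 -/-) and 65.7 against 41.8 at number 2. The last of these values was not above the background of its array. The genotypes overlapped, because both arrays numbered 1 stood above both numbered 2. The difference was -0.84 at number 1 and -0.55 at number 2 (mean -0.69, SE 1.12).

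Promoter sequences are shown for Itgb5 and Itgb8, which read lower within both numbers, and for Itga5, which read higher within both. Each line gives the 250 bases before the start site in RefSeq's GRCm38.p6 annotation, 5′ to 3′ on the gene's strand, with matches to any of 3 motifs in capitals. The first motif was GGGCGG, the GC box of Sp1-type factors, which reads CCGCCC on the other strand. The others were the AP-1 site TGANTCA and CACCTG, an E-box bound by factors such as those of the SNAI and ZEB families, which reads CAGGTG on the other strand. Both strands were searched, and no matches overlapped.
Itgb5, chr16:33829415-33829664, plus strand: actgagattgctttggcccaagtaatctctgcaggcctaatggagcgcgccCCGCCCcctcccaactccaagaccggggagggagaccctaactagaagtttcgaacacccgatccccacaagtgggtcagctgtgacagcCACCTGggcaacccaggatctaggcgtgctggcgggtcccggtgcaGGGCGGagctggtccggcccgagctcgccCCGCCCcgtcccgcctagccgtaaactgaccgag
Itgb8, chr12:119238277-119238526, minus strand: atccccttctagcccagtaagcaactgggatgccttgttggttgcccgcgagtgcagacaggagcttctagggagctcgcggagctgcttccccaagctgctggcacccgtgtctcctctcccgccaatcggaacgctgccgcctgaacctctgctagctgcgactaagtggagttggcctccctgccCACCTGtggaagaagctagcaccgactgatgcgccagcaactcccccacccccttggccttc
Itga5, chr15:103366792-103367041, minus strand: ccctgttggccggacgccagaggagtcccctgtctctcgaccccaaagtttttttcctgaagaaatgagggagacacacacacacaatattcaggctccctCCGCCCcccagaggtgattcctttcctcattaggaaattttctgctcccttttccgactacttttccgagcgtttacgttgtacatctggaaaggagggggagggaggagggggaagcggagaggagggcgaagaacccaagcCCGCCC

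In the Itgb5 window there were 3 matches to GGGCGG, beginning 199, 63 and 34 bases before the start site, and 1 to CACCTG at 109 bases before it. The Itgb8 window held 1 CACCTG, 62 bases before the start, and the Itga5 window held 2 matches to GGGCGG, at 149 and 6 bases before it. TGANTCA was not among the letters of these 3 windows. Of 32851 promoter entries of the same length, 32.7% held GGGCGG, 17.2% held CACCTG and 6.75% held TGANTCA, so that the first is common to many genes. RefSeq promoters were found for 32 of the 50 genes.

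The chains that read higher at both numbers included alpha v itself. Itgav read 4207 and 7928 on the PA1 +/+ arrays numbered 1 and 2, and 5627 and 9948 on the PA1 -/- arrays. Within each number the PA1 -/- array was the higher, but the arrays numbered 2 were above those numbered 1 in both genotypes, so that the genotypes overlapped. The differences were 0.42 and 0.33 (mean 0.37, SE 0.426), and a second tested probe set gave 0.92 and 0.53. Another probe set, too dim to be tested but above background on all 4 arrays, went the other way at both numbers (-0.11 and -0.22).

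Itgb1, the beta chain shared by most matrix-binding integrins, read 4526 and 5387 in PA1 +/+ and 5698 and 6708 in PA1 -/- cells, in the order of numbers 1 and 2. Both PA1 -/- arrays stood above both PA1 +/+ arrays, as for 2 of the 19 members (10.5%, against 15% of all genes). When the probe sets of each gene were averaged, this held for 0 members. The difference was 0.33 at number 1 and 0.32 at number 2 (mean 0.32, SE 0.195, 95% interval -0.18 to 0.83). All 3 tested probe sets were higher at both numbers, with differences from 0.19 to 0.40.

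The second of these 2 members was Itga5, the fibronectin receptor alpha chain. It read 336 and 771 in PA1 +/+ and 875 and 987 in PA1 -/- cells. The PA1 +/+ array numbered 1 stood apart from the other 3, and the difference was 1.36 at number 1 against 0.35 at number 2. The mean was 0.85, or 1.81-fold (SE 0.452, 95% interval -0.32 to 2.03). The 4 tested probe sets were all higher at both numbers, but their mean differences ran from 0.15 to 0.87. Without the PA1 +/+ array numbered 1 the difference was 0.27, the lowest when any 1 array was left out.

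**Figure D2:**
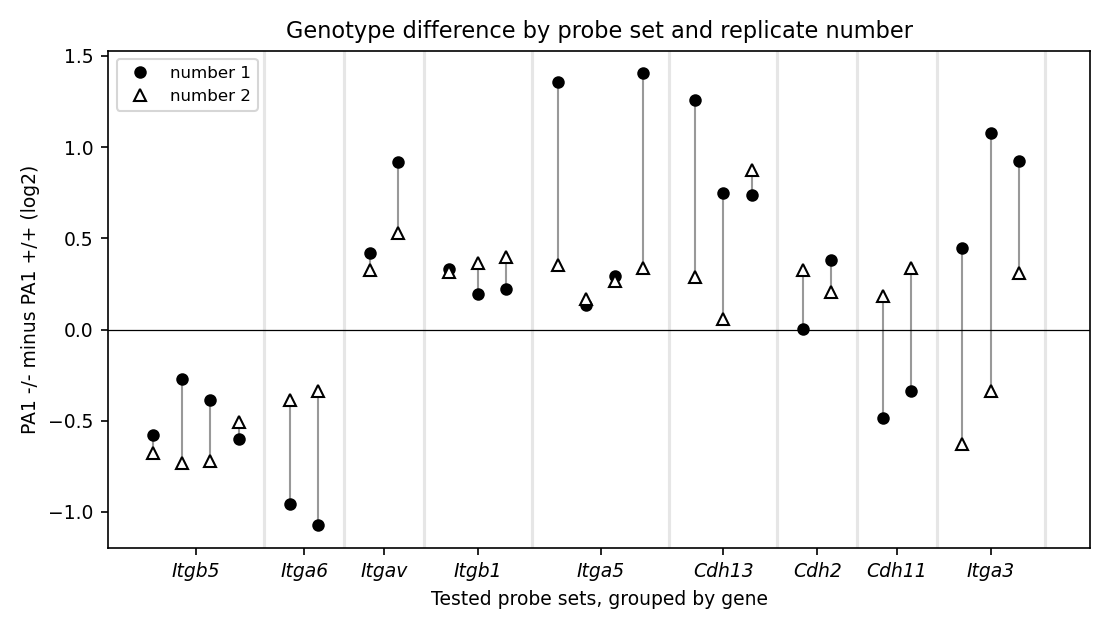
Difference between PA1 -/- and PA1 +/+ cells (log2, y axis) for every tested probe set of 9 genes, with number 1 as filled circles and number 2 as open triangles joined by a line. All 4 Itgb5 and both Itga6 probe sets lie below 0 at both numbers, the Itgav, Itgb1, Itga5, Cdh13 and Cdh2 probe sets above 0 at both, and those of Cdh11 on both sides. The brightest Cdh2 probe set is at 0.00 at number 1, and 1 of the 3 Itga3 probe sets is above 0 at both numbers.

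Among the laminin-binding chains, Itga6 differed far more between numbers than between genotypes. Its signal was 545 in PA1 +/+ and 276 in PA1 -/- cells at number 1, and 2660 and 2034 at number 2. Every array numbered 2 stood above every array numbered 1, by 2.55 on the log2 scale or 5.86-fold. Within numbers the PA1 -/- array was the lower, by -0.96 and -0.39 (mean -0.67, SE 1.20), and the second probe set of Itga6 gave -1.07 and -0.34. By that probe set the PA1 -/- array numbered 1 read 34.9, which was not above background, so the size of -1.07 is uncertain. Itga3 read 1201 and 1463 in PA1 +/+ and 1640 and 942 in PA1 -/- cells, with the highest and the lowest value both in PA1 -/- cells. Its differences of 0.45 and -0.63 averaged -0.09, while its other 2 tested probe sets had positive means of up to 0.62, and 1 of them was higher at both numbers. Itga7, a laminin receptor chain of muscle, read 218 and 283 against 246 and 321, a difference of 0.17 and 0.18.

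The remaining tested chains were dim. Itga8, an RGD-binding alpha chain, read 57.7 and 128.0 in PA1 +/+ and 42.8 and 53.3 in PA1 -/- cells, with the PA1 -/- array numbered 1 not above background. Its differences were -0.36 and -1.12 (mean -0.74, SE 0.463), and the PA1 -/- arrays lay below the PA1 +/+ arrays. The same order held for the collagen-binding chain Itga10 (86.5 and 100.9 against 82.4 and 62.5) and for the platelet chain Itga2b (268 and 265 against 224 and 238). Itga9, which pairs with beta 1, differed by 0.04, and Itgb3, a partner of alpha v, by -0.02, each with opposite signs at the 2 numbers. The mean difference of Itgb3 turned positive after quantile normalization or median scaling. Itgb7, a leukocyte chain that was too dim to be tested, read 42.8 and 70.1 in PA1 +/+ cells and 17.9 and 23.8 in PA1 -/- cells, where it was not above background. Taking the background as the lower level, Itgb7 was at least 1.13-fold higher in PA1 +/+ cells on average over the numbers. This bound rests on number 2, because at number 1 its PA1 +/+ signal of 42.8 was under the threshold of the PA1 -/- array (44.3). Itgb2, a relative of Itgb7 on leukocytes, read 45.4 and 81.5 against 29.7 and 56.8.

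**Figure D3:**
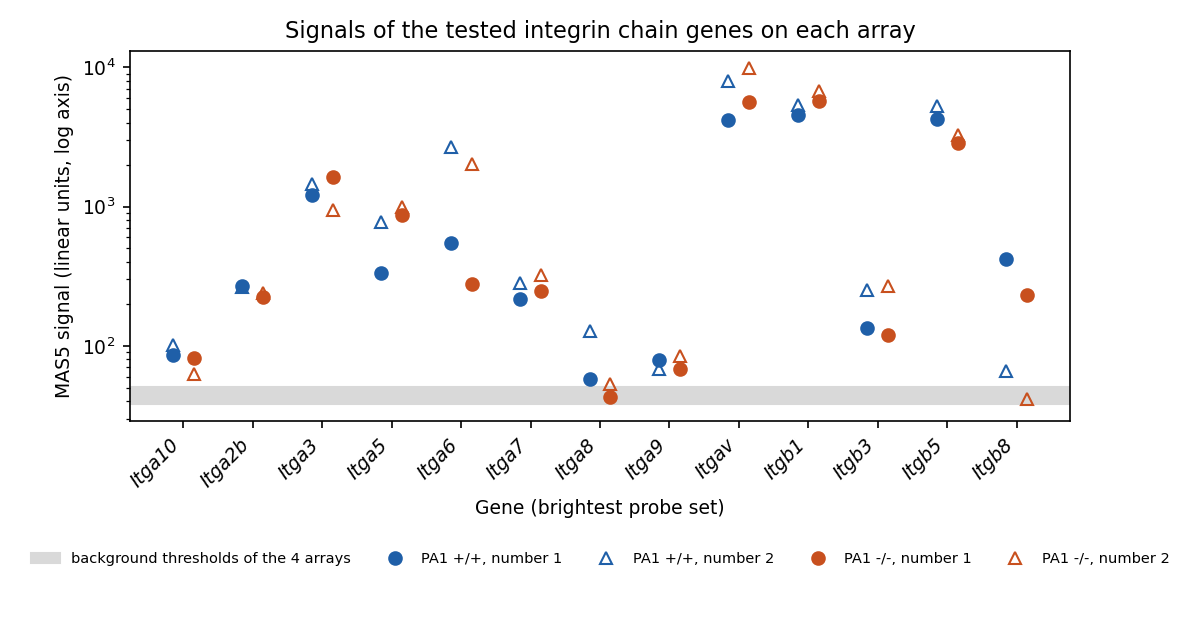
MAS5 signal on a log axis for the brightest probe set of each of the 13 tested integrin chain genes, with PA1 +/+ in blue and PA1 -/- in orange, number 1 as filled circles, number 2 as open triangles and the range of the 4 background thresholds in grey. Itgb5 separates by genotype (4281 and 5265 against 2862 and 3288), while Itga6 and Itgb8 separate by number.

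Of the mesenchymal cadherins, Cdh2 read 2529 and 1671 in PA1 +/+ and 2535 and 2102 in PA1 -/- cells, with overlapping groups and differences of 0.00 and 0.33 (mean 0.17, SE 0.291, 95% interval -0.59 to 0.92). A second probe set of Cdh2 gave 0.38 and 0.20. Cdh11 read 3583 and 4791 against 2558 and 5443, and both the lowest and the highest value were in PA1 -/- cells. It was lower in PA1 -/- cells at number 1 (-0.48) and higher at number 2 (0.18), with a mean of -0.15 (SE 0.416, 95% interval -1.24 to 0.93).

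Cdh13, or T-cadherin, is held in the membrane by a lipid anchor and lacks the catenin-binding tail. It read 116.6 and 525 in PA1 +/+ and 293 and 643 in PA1 -/- cells. As with Itga5, the PA1 +/+ array numbered 1 was the lowest of the 4, and the difference was 1.26 at number 1 and 0.29 at number 2 (mean 0.77, SE 0.803). Its 3 tested probe sets were all higher at both numbers, by 0.40 to 0.81 on average. Cdh15, the muscle M-cadherin, read 161 and 103.6 against 223 and 113.7, a difference of 0.45 and 0.12. Of 6 muscle markers Des and Acta1 were above background on all 4 arrays, and Myod1, Myog and Myh3 on none. Their summed signal was 271 and 873 in PA1 +/+ and 356 and 946 in PA1 -/- cells, and their part in the Cdh15 values was not tested.

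Other cadherins were read on the arrays of number 1 and not on those of number 2. Cdh3, which encodes P-cadherin, read 515 in PA1 +/+ and 556 in PA1 -/- cells at number 1, and 7.2 and 11.6 at number 2, where it was not above background. Cdh10, a type II cadherin best known from the nervous system, read 410 and 807 at number 1 and 13.3 and 10.2 at number 2, again not above background. A second tested probe set of Cdh10 gave 129 and 216 at number 1 and 25.2 and 23.2 at number 2. Both genotypes of number 1 thus stood far above both genotypes of number 2. Taking the background as the lower level, Cdh3 was at least 10.1-fold and Cdh10 at least 10.8-fold higher at number 1. By genotype Cdh3 differed by 0.11 and Cdh10 by 0.96 at number 1, and at number 2 no difference was measured, since both arrays were below background for both genes. Cdh3 and Cdh10 were singled out once their values had been seen, as was Itgb8. Of 6 neural markers Tubb3 and Nes were above background on all 4 arrays and Snap25 on none. Map2 read 793 and 606 at number 1 (PA1 +/+ and PA1 -/-) and 94.1 and 44.4 at number 2. Sox2 read 140.4 and 59.7 against 6.59 and 6.10, so that both were higher on the arrays numbered 1, as Cdh10 was. Nes went the other way, with 1089 and 1124 at number 1 and 1586 and 1236 at number 2. Number 2 minus number 1 was -1.33 for Tubb3 and -0.22 for Syt1. The summed signal of the 6 was 3050 and 2185 in PA1 +/+ and 2220 and 1438 in PA1 -/- cells, in the order of numbers 1 and 2, and their part in the Cdh10 values was not tested. In bulk RNA such as this, fewer cells of a type and less RNA per cell cannot be told apart.

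Cdh1, too dim to be tested, was above background on a single array. It read 159.6 in PA1 +/+ cells of number 1, 24.5 in PA1 -/- cells of number 1, and 3.37 and 1.46 in the PA1 +/+ and PA1 -/- cells of number 2. Its difference of -2.30 at number 1 therefore rests on 1 array and has no second measurement. Of 9 epithelial markers 2 were above background on all 4 arrays, and Krt14, Cldn7 and Esrp1 were above it on none. Their summed signal was 2193 and 2113 in PA1 +/+ and 3834 and 2069 in PA1 -/- cells, most of it from Krt19 (1598 and 1827 against 3239 and 1710). Krt18 read 298 and 266 at number 1 and 11.4 and 27.6 at number 2, and like Cdh1 it was above background on no array numbered 2. Epcam, above background on all 4 arrays, read 145.5 and 112.2 at number 1 and 162.6 and 190.4 at number 2. Krt8 was above background on both PA1 +/+ arrays, at 53.8 and 55.2. Cldn3 and Cldn4 were above it on the PA1 -/- array numbered 1 only. The part of other cell types in these differences was not tested. Cdh17 read 48.4 and 3.66 in PA1 +/+ and 54.9 and 46.9 in PA1 -/- cells, all near or below background. Cdh22, Cdh26 and Cdh6 did not exceed 77.7 on any array.

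**Figure D4:**
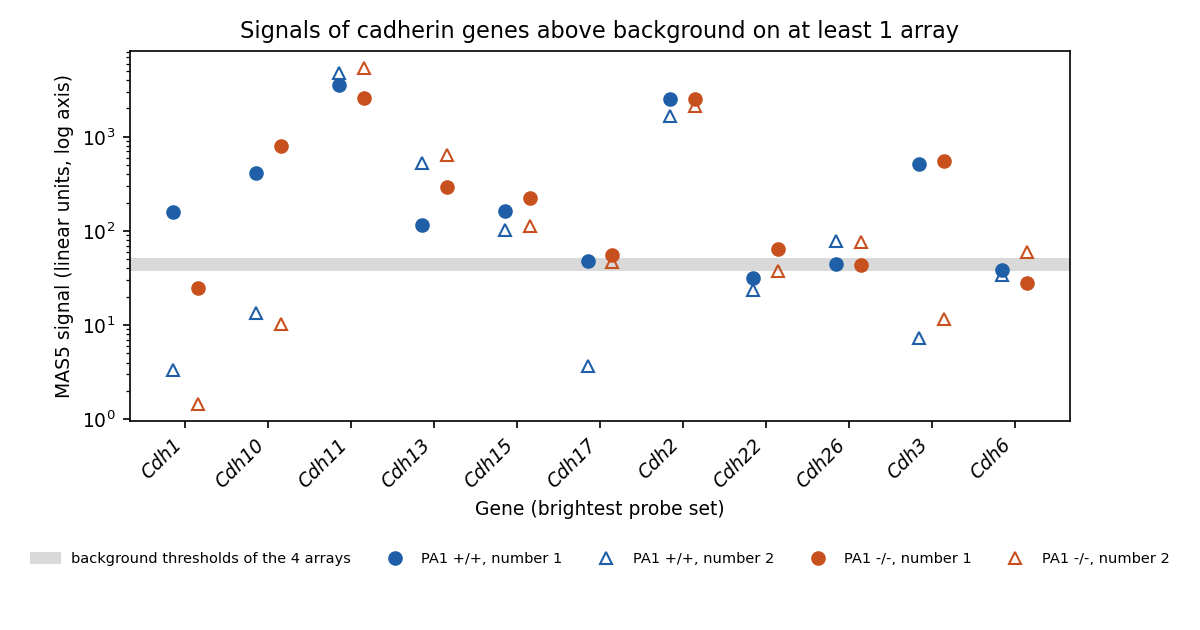
MAS5 signal on a log axis for the 11 cadherin genes above background on at least 1 array, with PA1 +/+ in blue, PA1 -/- in orange, number 1 as filled circles, number 2 as open triangles and the range of the 4 background thresholds in grey. Cdh3 and Cdh10 lie between 410 and 807 on the arrays numbered 1 and between 7.2 and 13.3 on those numbered 2, whereas Cdh2 and Cdh11 lie between 1671 and 5443 on all 4.

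Across the members, 4 of 19 were at least 4-fold apart between the numbers in the same direction in both genotypes, against 2.53% of all tested genes. They were Cdh3, Cdh10 and Itgb8, higher on the arrays numbered 1, and Itga6, higher on those numbered 2. The count was added with these values in view. Cdh3, Cdh10 and Itgb8 were bright enough to be tested only through the arrays numbered 1, so nothing is read from the 2 shares. The labels do not say what distinguishes the numbers. With the filter keeping the upper 30% it was 1 (Itga6), against 1.04% of all genes. It was 3, against 1.42%, where the pseudocount was the median signal. The difference between numbers was larger than that between genotypes for 12 of the 19 (63.2%, against 67.5% of all genes), and for all 6 tested cadherins. The arrays of one number stood wholly above those of the other for 11 of the 19 (57.9%, against 60.9% of all genes), again with all 6 cadherins among them. These 6 include Cdh3 and Cdh10, so nothing is read from either count of cadherins.

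**Figure D5:**
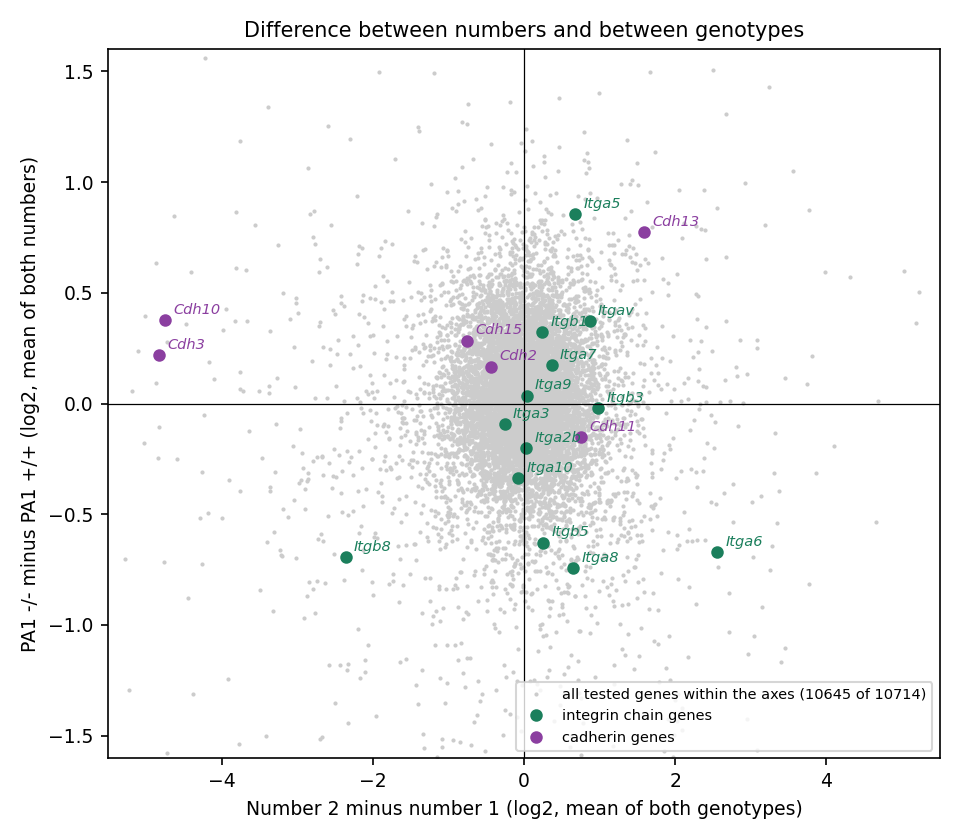
Difference between numbers (number 2 minus number 1, log2, x axis) against the difference between genotypes (log2, y axis) for tested genes within the axes in grey, integrin chains in green and cadherins in purple. Cdh3 and Cdh10 lie at -4.82 and -4.76 on the x axis, Itgb8 at -2.36 and Itga6 at 2.55, while the 19 members run from -0.74 to 0.85 on the y axis.

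The 5 further genes whose symbols matched encode no integrin chain. Itgb3bp, a centromere protein that was first found through its binding to the beta 3 tail, read 598 and 273 in PA1 +/+ and 292 and 172 in PA1 -/- cells. It was lower at both numbers (-1.01 and -0.63, mean -0.82, SE 0.498), with overlapping genotypes. Itgb1bp1, which binds the beta 1 tail and restrains its activation, read 1901 and 1405 against 2044 and 1920. Both of its PA1 -/- arrays lay above its PA1 +/+ arrays, at differences of 0.10 and 0.45. Itgbl1 read 33.9 and 75.5 against 34.9 and 139.4, Itgb1bp2 (melusin) 65.2 and 51.5 against 41.5 and 50.3, and Itgb2l 10.96 and 38.96 against 14.8 and 12.5, all too dim to be tested.

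The genes that work with these receptors were read from lists, whose shares stand beside 33.9% of all tested genes higher and 29.3% lower at both numbers. Counts at an unadjusted limma p under 0.05 stand beside 2.16% of all tested genes in either direction. Of the 23 genes of integrin activation and tail binding, 21 were on the array and 18 were tested. Of these, 12 were higher in PA1 -/- cells at both numbers, 3 were lower at both and 0 passed limma at an adjusted p under 0.05 (1 at an unadjusted p under 0.05). The median difference was 0.27. The adaptor genes Lims2 (109.2 and 173 in PA1 +/+, 215 and 456 in PA1 -/- cells, mean difference 1.13) and Parvb (134.2 and 540.0 against 406 and 851, 1.09) had the largest differences in that list. Both belong to the complex of ILK, PINCH and parvin that links beta chains to actin.

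Of 18 catenins and other cadherin partners 17 were tested, with 6 higher and 2 lower at both numbers, 0 called and a median of 0.17. Pkp2, a plakophilin of desmosomes, read 475 and 341 in PA1 +/+ and 1193 and 645 in PA1 -/- cells (mean difference 1.11, SE 0.402). It was the gene of this list with an unadjusted p under 0.05 in limma, at 0.0423. Ctnnd2, a catenin of the p120 family, read 169 and 468 against 381 and 858 (0.99). The integrin ligands had 16 tested genes, 6 higher and 4 lower at both numbers, 0 called and a median of -0.05. Postn, or periostin, read 2766 and 22.4 in PA1 +/+ and 427 and 4.36 in PA1 -/- cells, and the matricellular gene Thbs2 read 1342 and 32.9 against 351 and 16.1. Both were lower in PA1 -/- cells within number 1, by -2.67 and -1.90. Neither was above background at number 2, so that the direction there of these 2 of the 4 is not a measured one.

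Among regulators of the switch between cadherins, 8 of 11 were tested, with 2 higher and 2 lower at both numbers and 0 called. Snai2, a repressor of Cdh1, read 4252 and 7665 in PA1 +/+ and 2355 and 4583 in PA1 -/- cells (-0.85 and -0.74). Prrx1, a mesenchymal homeobox gene, read 2850 and 295 against 1160 and 69.1 (-1.29 and -1.95). Both were lower at each number, and neither passed limma (adjusted p = 0.9998 each). In other branches of the cadherin superfamily 30 of 32 genes were on the array and 9 were tested, of which 4 were lower and 0 higher at both numbers and 0 were called. The protocadherin Pcdh19 read 2917 and 3395 in PA1 +/+ and 2243 and 1910 in PA1 -/- cells (-0.60, SE 0.218), with both PA1 -/- arrays below both PA1 +/+ arrays and an unadjusted limma p of 0.0421. The calsyntenin gene Clstn3 read 77.0 and 37.2 against 76.4 and 87.0.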

How the data were processed

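The authors deposited 1 table of linear intensity values. The submitters' processing notes name MAS5 for them, and the sources used here do not give its version or settings. The mean signal without the lowest and highest 2% of probe sets was 498 on each array, so changes shared by most genes are removed. Control probe sets (64) were dropped, and among the other 45037 the platform annotation gave 1 symbol for 34945, several for 932 and none for 9160. All 50 member genes were found by identifier in RefSeq's GRCm38.p6 gene table, used for names only. No detection call was used.

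Signals were analysed as log2(signal + 9.96), the added number being the 20th percentile of all signals; this shrinks fold changes where signals are low. limma 3.58.1 in R 4.3.3 (lmFit and eBayes with a trend) compared the genotypes over the brighter 50% of probe sets (22519) in 2-sided tests adjusted by Benjamini-Hochberg. Genotype was the only term, which left 2 residual degrees of freedom. The fit was tested on simulated data. "At least" folds set the dimmer arrays to the background threshold where they were below it. The counts over 19 genes are of integrin chains and cadherins. Member values were named where a member above background differed by 2-fold on average or at either number, or was among the 6 integrin and 4 cadherin genes of highest signal, with the 2 largest differences per list. Cdh3, Cdh10, Itgb8 and others were added after their values were seen. The members and lists were chosen with earlier results of these data known. Alternatives covered normalization, pseudocount, filter, variance model, probe set choice, replicate block, background rule and each array left out. Python 3.11.15 with matplotlib 3.10.9 made the figures.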

Additional observations from a re-analysis of the deposited data

How the results depend on the processing

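With genotype as the only term, 0 genes passed limma at an adjusted p under 0.05 under any normalization, pseudocount, filter, variance model or left-out array tried, with 1 of the 19 members (Itgb5) and 231 of 10714 genes at an unadjusted p under 0.05 in the fit reported. The member count was 0 in fits without a trend or with averaged probe sets, and it is not read from fits without 1 array. A left-out array leaves its genotype with 1, assumed to vary like the others. Same-numbered arrays deviated together from their group means (correlation 0.805 over tested probe sets), but the labels do not say what a number marks. With the replicate number as a block, 266 of 10714 genes (2.48%) and 1 of the 19 members passed, namely Itgb5 (adjusted p = 0.0426, limma), and 8 members had an unadjusted p under 0.05.

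The median difference of integrin chains was -0.14 after quantile normalization, -0.14 after cyclic loess, -0.035 after median scaling, -0.086 with a pseudocount at the median signal, -0.017 without the filter, 0.12 with the filter keeping 30%, and -0.022 when probe sets were averaged by gene. For cadherins it was 0.30 after median scaling, 0.31 with a pseudocount of 1, 0.19 with a pseudocount at the median, 0.14 without the filter and 0.17 with the stricter filter. Without 1 array these medians ran from -0.19 to 0.17 and from -0.072 to 0.52. Counting probe sets above background on at least 1 array gave 53 in place of 31. With the stricter filter, which left fewer genes, 1 member (1.04% of all genes) was at least 4-fold apart between numbers in place of 4 (2.53%), and 3 (1.42%) with a pseudocount at the median.

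Itga3 differed by 0.30 when its probe sets were averaged, and Itgb3 by 0.0057 after quantile normalization and 0.032 after median scaling. A fit without 1 array holds unequal numbers in the genotypes and so carries part of the difference between numbers. Such fits turned the direction of 13 of the 19 genes. The ranges were -2.29 to 3.05 for Cdh10, -0.69 to 0.39 for Cdh11, -0.26 to 1.81 for Cdh13, -0.17 to 0.74 for Cdh15, -0.13 to 0.46 for Cdh2, -2.25 to 2.69 for Cdh3, -0.49 to 0.30 for Itga3, -2.09 to 0.75 for Itga6, -0.013 to 0.36 for Itga7, -0.10 to 0.17 for Itga9, -0.083 to 0.83 for Itgav, -0.57 to 0.53 for Itgb3 and -1.95 to 0.56 for Itgb8. Itgb5, Itgb1, Itga5, Itga8, Itga10 and Itga2b kept their sign in every such fit.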
